A study of Mus musculus with 12 samples.

Results

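Lymphocyte genes were examined in tumours of C4-HD, a transplantable mouse mammary carcinoma that grows under progestin. The genes mark T cells, natural killer (NK) and other cytotoxic cells, B and plasma cells, or encode immune checkpoint receptors and their ligands. They were a given list of 36 symbols, and a probe set was used where the platform annotation maps it to 1 of these symbols alone. Of the 36 genes 34 were measured, by 51 probe sets, among 18161 genes measured by 34945 probe sets. Lck and Tigit were not analysed here. Of the 34 genes 24 had 1 probe set and 10 had several.

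T cells recognise antigen through a receptor whose signal is carried by the CD3 chains and the zeta chain, with CD4 or CD8 as co-receptor and kinases behind them. Cytotoxic T cells and NK cells kill through granules that hold perforin and granzymes, while B cells signal through CD79 chains and mature into antibody-secreting plasma cells. Checkpoint receptors such as PD-1, CTLA-4 and LAG-3 restrain activated lymphocytes, and tumour or myeloid cells can engage PD-1 through its ligand PD-L1. In mammary carcinomas these cells form part of the infiltrate beside macrophages, fibroblasts and vessels, and mice of the BALB/c strain used as hosts have T, B and NK cells of their own.

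The 12 arrays fell into 6 groups of 2. All tumours had grown in BALB/c mice carrying pellets of MPA (medroxyprogesterone acetate, a progestin). The MPA group kept this hormone. In the MFP groups the pellet was taken out at a tumour area of 50 mm2 and MFP (mifepristone, which blocks the progesterone receptor) was given at 10 mg/kg/day for 6 h, 12 h, 24 h or 48 h, so that each contrast of MFP with MPA changes the drug and the hormone at once. The remaining group received saline for 48 h and carries the source name no MPA, although the treatment protocol has the control group receive saline while MPA was still present. The source name is used here. The series text names no 6 h group and has the tumours taken out after 2 days, so the time axis rests on the sample labels. All arrays share the same carcinoma, the labels give no age of the mice, and replicates are numbered only to name them. The series text speaks of independent replicates, but the labels name no animals, so the p-values reflect only how these samples spread, which may be technical.

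Values are given as log2 ratios to the average of both MPA arrays on the linear scale, so 1 unit is a 2-fold difference and the level of a gene above background is not known. Pairs of values are given with replicate 1 first. Whether a gene was present at all in a tumour therefore cannot be read from these values. A ± behind a fold change (log2) gives limma's standard error (n = 2 arrays per group), and adjusted p-values are limma's, after Benjamini-Hochberg over all 34945 probe sets. A gene is said to have passed the test, or to have risen, where its adjusted p was under 0.05. In bulk tissue, fewer cells of a type and less RNA per cell cannot be told apart. The arrays differed in other ways beside the lymphocyte genes. A list of 11 exocrine pancreas genes had medians of 5.72 with 4.47 at 6 h, 0.83 with 6.82 at 24 h and 4.90 with 5.30 at 48 h, 14 liver genes had 3.69 and 4.10 at 24 h, and 15 skeletal muscle genes had 4.24 in replicate 1 at 48 h. The difference between the 3' and 5' control probe sets of Actb grows as RNA is broken. These control values are ratios to MPA too, so the difference lies near 0 in MPA by design and does not give how intact the RNA was there. It ran from -0.09 to 0.14 in the MPA and no MPA arrays. Under MFP it was 0.20 with 0.13 at 6 h and 0.34 with 0.36 at 12 h. Later it was 0.35 with 0.50 at 24 h and 0.47 with 0.59 at 48 h. This difference thus grew with MFP time, and its part in the time trends given below was not tested.

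The start regions of 4 genes on which the results turn are shown for orientation: Cd79a and Jchain, a B cell and a plasma cell gene with their highest values in MFP 24 h replicate 2 and MFP 48 h replicate 1, and Gzmb and Cd274, which passed the test. They run from 250 bases before to 50 bases after the annotated start, from RefSeq on GRCm38.p6, and capitals mark matches to any of 8 motifs searched on both strands.

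Cd79a, chr7:24897247-24897546, + strand: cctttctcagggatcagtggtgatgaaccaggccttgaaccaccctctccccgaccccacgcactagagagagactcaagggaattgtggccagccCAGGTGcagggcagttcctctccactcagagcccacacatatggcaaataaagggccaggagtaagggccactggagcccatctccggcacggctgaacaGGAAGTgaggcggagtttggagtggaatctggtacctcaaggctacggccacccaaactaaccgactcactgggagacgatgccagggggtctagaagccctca

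Jchain, chr5:88527848-88528147, - strand: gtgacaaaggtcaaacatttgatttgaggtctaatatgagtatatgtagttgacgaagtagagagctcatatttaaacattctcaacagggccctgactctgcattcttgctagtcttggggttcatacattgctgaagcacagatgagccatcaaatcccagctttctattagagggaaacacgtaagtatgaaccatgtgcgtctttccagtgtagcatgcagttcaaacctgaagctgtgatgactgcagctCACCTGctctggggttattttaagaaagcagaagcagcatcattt

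Gzmb, chr14:56262285-56262584, - strand: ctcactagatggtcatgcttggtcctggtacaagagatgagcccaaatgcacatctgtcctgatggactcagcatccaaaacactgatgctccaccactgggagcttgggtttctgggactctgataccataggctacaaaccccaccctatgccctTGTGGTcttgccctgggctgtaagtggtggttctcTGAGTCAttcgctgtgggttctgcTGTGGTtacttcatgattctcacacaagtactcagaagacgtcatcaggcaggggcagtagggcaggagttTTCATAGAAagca

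Cd274, chr19:29367188-29367487, + strand: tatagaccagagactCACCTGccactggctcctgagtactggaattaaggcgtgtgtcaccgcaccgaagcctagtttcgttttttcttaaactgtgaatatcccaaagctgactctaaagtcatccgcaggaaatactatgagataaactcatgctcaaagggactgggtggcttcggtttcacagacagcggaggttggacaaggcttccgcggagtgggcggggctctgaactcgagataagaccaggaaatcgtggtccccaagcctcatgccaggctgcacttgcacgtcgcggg

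The motifs were the octamer ATGCAAAT (in 1.74% of 32851 promoters of the same length), an EBF motif of TCCC and GGGA with any 2 bases between (0.904%), an ETS motif GGAAGT (23.8%), a RUNX motif TGTGGT (16.8%), the AP-1 motif TGAGTCA (5.2%), the GAS element TTCNNNGAA bound by STAT factors (8.3%), an ISRE core of GAAA and GAAA with any 2 bases between (3.44%) and the E2A motif CAGGTG (20.2%). No match of 2 different motifs overlapped in the regions shown. Gzmb held 2 RUNX matches, 1 AP-1 match and 1 GAS match. Cd79a held an E2A and an ETS match, and Jchain and Cd274 held an E2A match each. A promoter was found for 24 of the 34 measured genes, 26 of the 36 listed, with 28 promoters in all. Of these 28, 15 held the E2A motif, 10 the RUNX motif, 9 the ETS motif, 5 the GAS element, 2 the AP-1 motif and 2 the ISRE core, and none held the octamer or the EBF letters.

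Across the 34 genes few changes passed the test. Cd274, the gene of PD-L1, rose at 12 h of MFP, and Gzmb, the gene of granzyme B, rose at 24 h. Along the MFP time course Foxp3 and Pdcd1 rose. No member fell in any of the 8 comparisons. B cell genes showed the largest values of all, but in 1 array only of each of the 24 h and 48 h groups. Jchain, a plasma cell gene, was high in both 24 h arrays. None of the B and plasma cell genes passed.

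**Figure D1:**
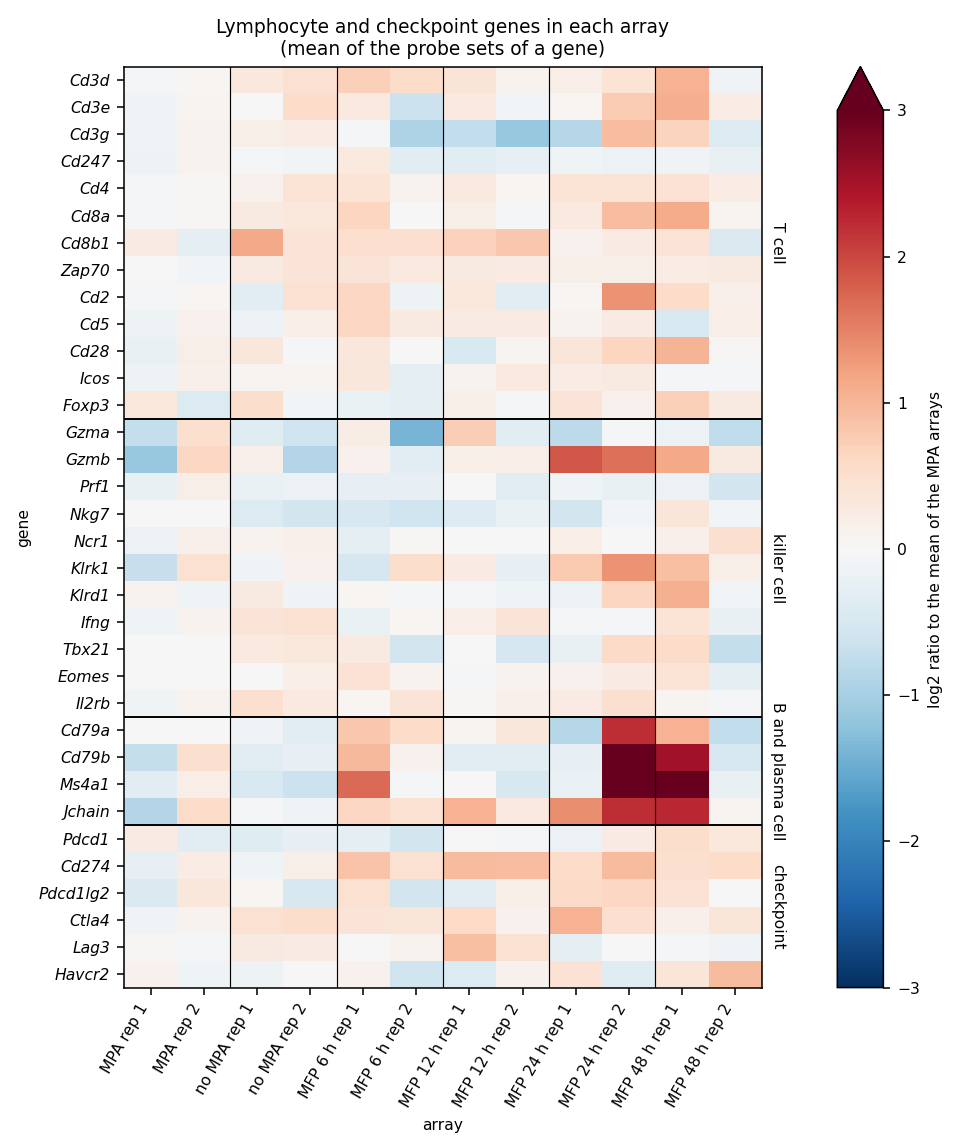
The heat map shows the log2 ratio to the MPA mean for each of the 34 genes (rows, grouped by role, mean of a gene's probe sets) in each of the 12 arrays (columns), with colours cut at 3. The darkest cells belong to Cd79b and Ms4a1 in MFP 24 h replicate 2 and to Ms4a1 in MFP 48 h replicate 1, while the other array of each of these groups is pale in the same rows.

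The MFP contrasts asked which lymphocyte and checkpoint genes differ from tumours with MPA, and they share the MPA arrays. At 6 h none of the 51 probe sets passed, where 1.11% of all probe sets did (2 members had an unadjusted p under 0.05 in limma, Cd274 and Nkg7). At 12 h 1 passed, Cd274, which was higher, where 3.66% of all probe sets passed and 1.46% were higher. At 24 h 1 passed, Gzmb, which was higher, where 6.97% of all probe sets passed and 3.36% were higher, and 10 had an unadjusted p under 0.05. At 48 h none passed, where 10.5% of all probe sets did, and 3 had an unadjusted p under 0.05. In the time trend over the 8 MFP arrays 2 passed, Foxp3 and Pdcd1, both upward, where 10.1% of all probe sets passed and 5.82% did so upward, and 9 members had an unadjusted p under 0.05. The members' share of calls was below that of all probe sets in each of these comparisons. Among all 34945 probe sets, 5198 had an unadjusted p under 0.05 in limma at 6 h and 7732 at 24 h. At 48 h these were 8886 and in the time trend 8592, and the members' share was lower each time.

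The members as a group lay above MPA by a small amount, also without MFP but hardly at 12 h, and the size depended on single arrays. In the no MPA group 36 of 51 probe sets had a log2 fold change above 0, with a median of 0.13, and at 6 h of MFP 32 of 51 with a median of 0.16 (0.01 for all probe sets in both). At 24 h 43 of 51 probe sets had a log2 fold change above 0, with a median of 0.30, while 45.6% of all probe sets were above 0 and their median was -0.04. Without MFP 24 h replicate 2 the members' median was 0.17, with 32 of 51 above 0, and without MFP 24 h replicate 1 it was 0.50. At 48 h 39 of 51 were above 0 with a median of 0.32, against 48.7% and -0.01 for all probe sets. Without MFP 48 h replicate 1 this median was 0.03, with 26 of 51 above 0, without MFP 48 h replicate 2 it was 0.51, and without MPA replicate 1 it was 0.17. At 24 h the arrays of MFP and MPA did not overlap in 21 members, 18 of them higher (20.7% of all probe sets were higher in this way) and 3 lower (28.0%).

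Among 26 probe sets of 13 T cell genes none passed in a contrast with MPA, and 1, for Foxp3, passed in the time trend. Their median log2 fold change was 0.30 at 24 h and 0.34 at 48 h, with 21 of 26 above 0 at 48 h. The no MPA group, which had no MFP, was shifted too, with a median of 0.24 and 22 of 26 above 0, and at 6 h the median was 0.21. From no MPA to MFP 48 h the median difference was 0.13, with 15 of 26 above 0. For Cd3e, an invariant chain of the T cell receptor complex, the MPA arrays stood at -0.10 and 0.09 and the no MPA arrays at -0.01 and 0.56. The MFP pairs were 0.29 with -0.65 at 6 h, 0.30 with -0.08 at 12 h, 0.06 with 0.76 at 24 h, and 1.08 with 0.22 at 48 h. The highest Cd3e values were thus in 1 array each at 24 h and 48 h, and replicates of most MFP groups lay far apart. Cd3e did not differ from MPA at 48 h beyond the error (0.65 ± 0.39, adjusted p = 0.341).

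The other receptor chains behaved in different ways. Cd3d lay at 1.05 and -0.10 at 48 h, and at 0.20 and 0.41 at 24 h. Cd3g, a further CD3 chain, ran from -1.15 in MFP 12 h replicate 2 to 0.94 in MFP 24 h replicate 2, and both 12 h arrays were below both MPA arrays. For Cd247, the zeta chain that passes the signal on, 4 probe sets disagreed: 2 lay below and 2 above MPA at both 24 h and 48 h. The lowest of them stood at -0.83 ± 0.28 at 24 h (adjusted p = 0.108) and -0.80 ± 0.28 at 48 h (adjusted p = 0.0973), and the highest at 0.41 ± 0.34 and 0.49 ± 0.34. The direction of Cd247 therefore depends on the probe set.

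Among the co-receptor genes the probe sets of Cd8a and of Cd4 agreed in direction at 24 h and 48 h, while replicates often lay apart. Cd8a, a chain of the co-receptor of cytotoxic T cells, had 5 probe sets, all 5 with a log2 fold change above 0 at 24 h and at 48 h. One of them had -0.10 and 0.10 in MPA, 0.54 and 0.59 in no MPA, 0.79 and 1.16 at 24 h, and 1.40 and 0.55 at 48 h. In it every 24 h and 48 h array was above both MPA arrays, with 0.98 ± 0.32 at 24 h (adjusted p = 0.0942) and 0.98 ± 0.32 at 48 h (adjusted p = 0.0766), short of the threshold. Its no MPA arrays were also above MPA. Another Cd8a probe set stood at 0.51 and 1.72 at 24 h and at 1.62 and 0.06 at 48 h, so that its high values lay in the same arrays as those of Cd3e. The remaining Cd8a probe sets stood at 1.08 with -0.22, 0.95 with -0.09 and 0.50 with 0.13 at 48 h. Cd8b1, the partner chain, was at 0.70 and 0.81 at 12 h (0.78 ± 0.31, adjusted p = 0.223) and at 0.39 and -0.43 at 48 h. Cd4, the co-receptor of helper T cells, had 0.65 and 0.72 at 24 h in 1 of its 2 probe sets (0.69 ± 0.25, adjusted p = 0.13).

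No gene of signalling or co-stimulation passed in these contrasts with MPA. Zap70, a kinase that binds the zeta chain, had 3 probe sets with log2 fold changes of 0.04 to 0.37 at 24 h. Cd2, an adhesion receptor, was at 0.05 and 1.34 at 24 h, and Cd5, which dampens receptor signals, at 0.11 and 0.24. Cd28, a co-stimulatory receptor, had 2 probe sets at 0.32 ± 0.36 and 0.74 ± 0.41 at 24 h, and 1 of them passed at 48 h in the fit without MFP 48 h replicate 2 (1.35). Icos, a related receptor of activated T cells, had 3 probe sets, of which 2 were above 0 at 24 h and 1 at 48 h, and 1 stood at 0.76 ± 0.29 at 24 h (adjusted p = 0.146).

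Foxp3, the transcription factor that defines regulatory T cells, rose along the MFP time course. Its values were -0.20 with -0.30 at 6 h, 0.17 with -0.07 at 12 h, 0.38 with 0.13 at 24 h, and 0.71 with 0.27 at 48 h. The MPA arrays stood at 0.32 and -0.41 and the no MPA arrays at 0.53 and -0.07, a range that holds all MFP values but 1. The slope was 0.24 ± 0.06 per log2 unit of hours over the 8 MFP arrays (adjusted p = 0.0384), in a fit that uses no MPA array. Against MPA, Foxp3 did not pass at 48 h (0.54 ± 0.29, adjusted p = 0.28). When 1 MFP array was left out the trend kept its call if that array was replicate 2 of 24 h or of 48 h, and lost it for each of the other 6, with slopes of 0.19 to 0.30.

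**Figure D2:**
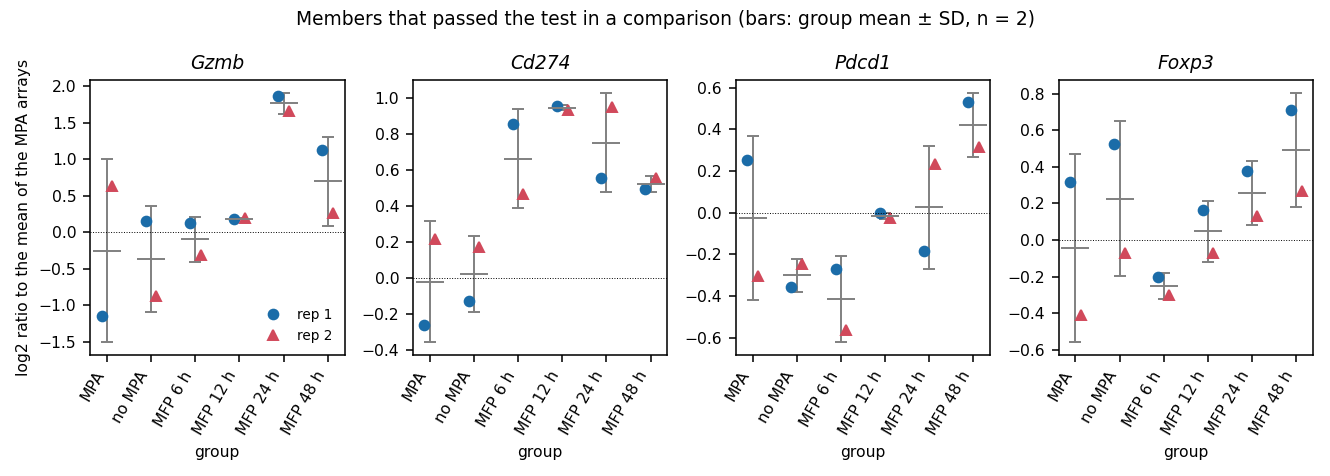
Each panel plots the log2 ratio to the MPA mean of 1 gene that passed in a comparison, by group, with a circle for replicate 1, a triangle for replicate 2 and bars for the group mean ± SD (n = 2). Gzmb is high in both 24 h arrays (1.87 and 1.66), Cd274 lies above MPA in all 8 MFP arrays, and Pdcd1 and Foxp3 are lowest at 6 h and highest at 48 h.

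Gzmb, which encodes a granule protease of cytotoxic T and NK cells, was the only one of 11 killer cell genes to pass. The MPA arrays stood at -1.14 and 0.63, the no MPA arrays at 0.15 and -0.88, and the arrays at 6 h and 12 h between -0.31 and 0.20. At 24 h both arrays were high, at 1.87 and 1.66, and at 48 h they stood at 1.13 and 0.26. The 24 h arrays lay close together and above all the others, while the MPA arrays differed by more than 1 unit. Liver gene medians were high in the same 24 h arrays, at 3.69 and 4.10, and stood at 0.86 and -2.48 in MPA. The part of this in the Gzmb values was not tested. Gzmb rose by 2.02 ± 0.52 at 24 h (adjusted p = 0.0454). Its mean was 1.76 ± 0.15 (SD, n = 2) at 24 h and -0.26 ± 1.25 in MPA. The size depended on the MPA array used: 2.90 without MPA replicate 2 and 1.13 without MPA replicate 1. Of the 12 fits that leave out 1 array, Gzmb passed in 3, those without MPA replicate 2 or either 48 h array (adjusted p from 0.00895 to 0.233 over the 12). At 48 h it stood at 0.95 ± 0.52 (adjusted p = 0.298), or at 1.83 and past the threshold without MPA replicate 2.

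None of the other 10 killer cell genes passed, and Klrk1, described with the NK receptors, was the only one of them with an unadjusted p under 0.05 at 24 h. Nkg7, a granule membrane protein gene, had -0.01 and 0.01 in MPA and -0.42 and -0.55 in no MPA. The MFP pairs were -0.48 with -0.59 at 6 h, -0.40 with -0.19 at 12 h, -0.55 with -0.07 at 24 h, and 0.36 with -0.08 at 48 h. All arrays from no MPA to 24 h of MFP were thus below both MPA arrays, by -0.53 ± 0.22 at 6 h (adjusted p = 0.283). Prf1, whose product perforin forms the pore, had 2 probe sets at 0.05 ± 0.19 and -0.37 ± 0.26 at 24 h and at -0.33 ± 0.19 and -0.36 ± 0.26 at 48 h. Gzma, a second granzyme gene, ran from -1.41 in MFP 6 h replicate 2 to 0.74 in MFP 12 h replicate 1 and stood at -0.30 ± 0.57 at 24 h.

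Receptors of NK cells gave mixed values. Klrk1, the gene of the activating receptor NKG2D, was at 0.79 and 1.34 at 24 h, at 0.90 and 0.18 at 48 h and at -0.69 and 0.47 in MPA. Both 24 h arrays were above both MPA arrays, by 1.18 ± 0.44 (adjusted p = 0.144). Klrd1, the gene of CD94, was at -0.18 and 0.66 at 24 h and at 1.07 and -0.09 at 48 h. Ncr1, the gene of the NK receptor NKp46, stayed between -0.27 and 0.48 in all arrays. Il2rb, a receptor chain for interleukins that sustain these cells, had 2 probe sets at 0.33 ± 0.21 and 0.42 ± 0.26 at 24 h, and 1 of the 2 lay above 0 at 48 h.

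The effector cytokine and the transcription factors of type 1 immunity showed no change past the test. Ifng, the interferon gamma gene, was at -0.07 and -0.07 at 24 h, at 0.40 and -0.23 at 48 h and at 0.40 and 0.45 in no MPA. Tbx21, the gene of T-bet, was at -0.23 and 0.58 at 24 h and at 0.56 and -0.71 at 48 h. Eomes, a related factor, had 2 probe sets at 0.16 ± 0.25 and 0.24 ± 0.27 at 24 h, and at 48 h they lay on either side of 0. Over the 14 killer cell probe sets the median log2 fold change was 0.17 at 24 h and 0.12 at 48 h.

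B cell genes separated the replicates of the 24 h and 48 h groups. Ms4a1, the gene of the B cell surface protein CD20, had 2 probe sets, and Ms4a1, Cd79b and Jchain are given in every array because their values were seen to be large. In the first Ms4a1 probe set the MPA arrays stood at -0.77 and 0.50, the no MPA arrays at -1.12 and -1.19, and the arrays at 6 h at 2.19 and -0.19 and at 12 h at 0.11 and -0.89. At 24 h the arrays stood at -0.91 and 5.98, and at 48 h at 4.60 and -0.91. Replicate 2 at 24 h and replicate 1 at 48 h were thus more than 5 units above the other array of their group. The second probe set gave 0.53 with 4.92 at 24 h, 3.76 with 0.48 at 48 h, 1.23 with 0.08 at 6 h, and values between -0.09 and 0.19 in the MPA, no MPA and 12 h arrays.

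Cd79a and Cd79b, which encode the signalling chains of the B cell receptor, had the same 2 arrays on top. For Cd79a the MPA arrays were at 0.02 and -0.02, no MPA at -0.10 and -0.35, 6 h at 0.80 and 0.55 and 12 h at 0.09 and 0.35. At 24 h they were at -0.86 and 2.21 and at 48 h at 1.03 and -0.74, so that 1 array of each group lay above and the other below both MPA arrays. For Cd79b the arrays stood at -0.24 and 3.67 at 24 h, at 2.52 and -0.49 at 48 h, at 0.98 and 0.13 at 6 h, and between -0.72 and 0.48 in the MPA, no MPA and 12 h groups. With such spread the mean differences did not pass: at 24 h Cd79a had 0.67 ± 0.80 (adjusted p = 0.69), Cd79b 1.83 ± 1.14 (adjusted p = 0.394) and Ms4a1 2.67 ± 2.05 and 2.72 ± 1.24 (adjusted p = 0.5 and 0.232).

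Jchain, the gene of the chain that joins secreted IgM and IgA, followed the pattern in part. It stood at -0.88 and 0.54 in MPA, -0.025 and -0.13 in no MPA, 0.61 and 0.45 at 6 h and 1.05 and 0.30 at 12 h. At 24 h both arrays were high, at 1.39 and 2.22, and at 48 h the values were 2.26 and 0.07. Jchain was thus above both MPA arrays in both 24 h arrays, as was the second Ms4a1 probe set, and its difference was 1.97 ± 0.64 (adjusted p = 0.0992). Without either of the 48 h arrays, left out 1 at a time, the same difference passed (adjusted p = 0.0334).

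**Figure D3:**
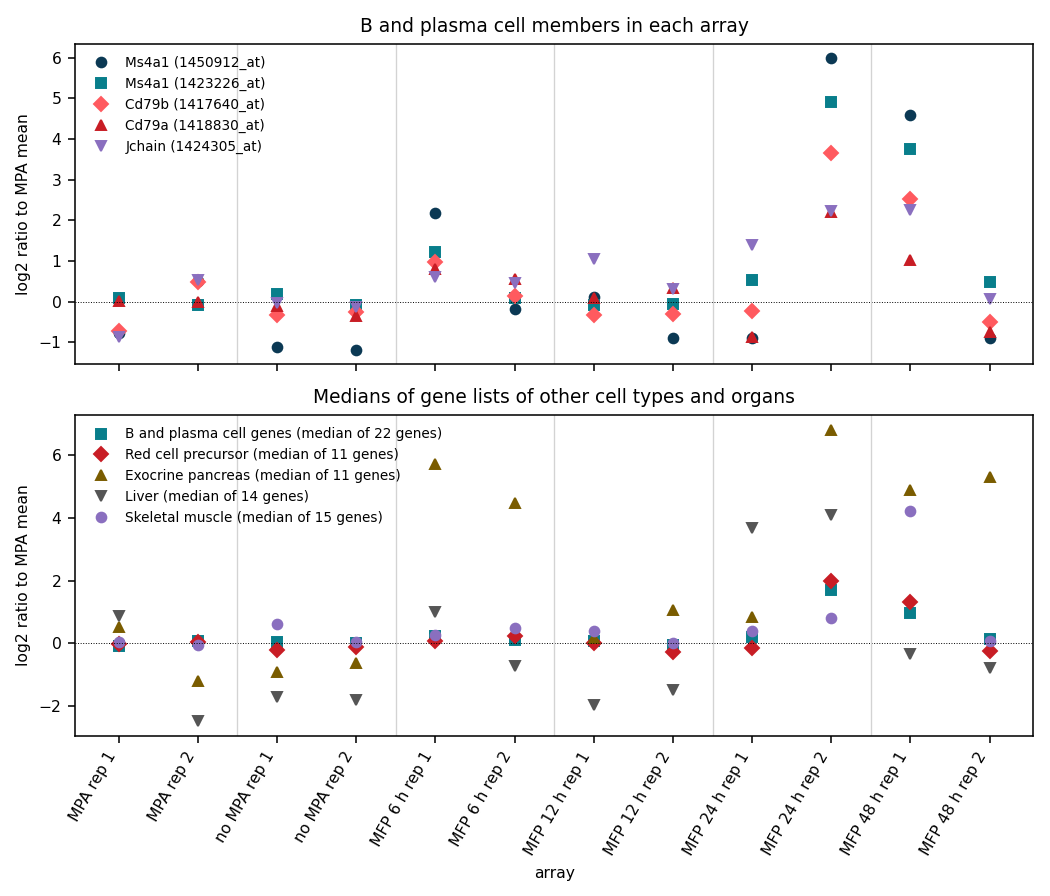
The upper panel plots the log2 ratio to the MPA mean of the 5 B and plasma cell probe sets in each array, and the lower panel the medians of a wider B and plasma cell list, red cell precursor genes and genes of 3 other organs. In MFP 24 h replicate 2 and MFP 48 h replicate 1 the B cell markers and the red cell precursor median (1.98 and 1.32) are high together, while the pancreas and liver medians follow other arrays as well.

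The disagreement of the 24 h arrays was measured over all members. At 24 h 8 of the 51 probe sets, or 15.7%, lay more than 1 unit apart between the replicates, against 5.12% of all probe sets. At 48 h these were 13 of 51, or 25.5%, against 4.3%. In the MPA group 11.8% of the members were this far apart (4.94% of all), at 6 h 13.7% (2.64%), at 12 h 1.96% (1.98%) and in no MPA 3.92% (2.09%). By role, 4 of 5 B and plasma cell, 4 of 26 T cell, none of 14 killer cell and none of 6 checkpoint probe sets were more than 1 unit apart at 24 h. At 48 h these were 5 of 5, 6 of 26, 2 of 14 and none of 6.

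The members tended to be higher in the same pair of arrays. Of the 51 probe sets 32, or 62.7%, were higher in MFP 24 h replicate 2 than replicate 1 and also higher in MFP 48 h replicate 1 than replicate 2, against 22.5% of all probe sets. By more than 1 unit in both, these were 7 of 51, or 13.7%, against 0.661% of all. The 7 were both Ms4a1 probe sets, Cd79b, Cd79a, 2 of Cd8a and Cd3g. The gap was 6.89 and 5.51 for the first Ms4a1 probe set, 3.91 and 3.01 for Cd79b, 3.08 and 1.78 for Cd79a and 1.78 and 1.08 for Cd3g, in the 24 h and the 48 h group. Genes of T and B cells thus shared the high arrays, with the larger gaps in B cell genes. Ctla4, Havcr2, Ncr1 and 1 probe set each of Cd247 and Zap70 had the opposite order in both groups.

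**Figure D4:**
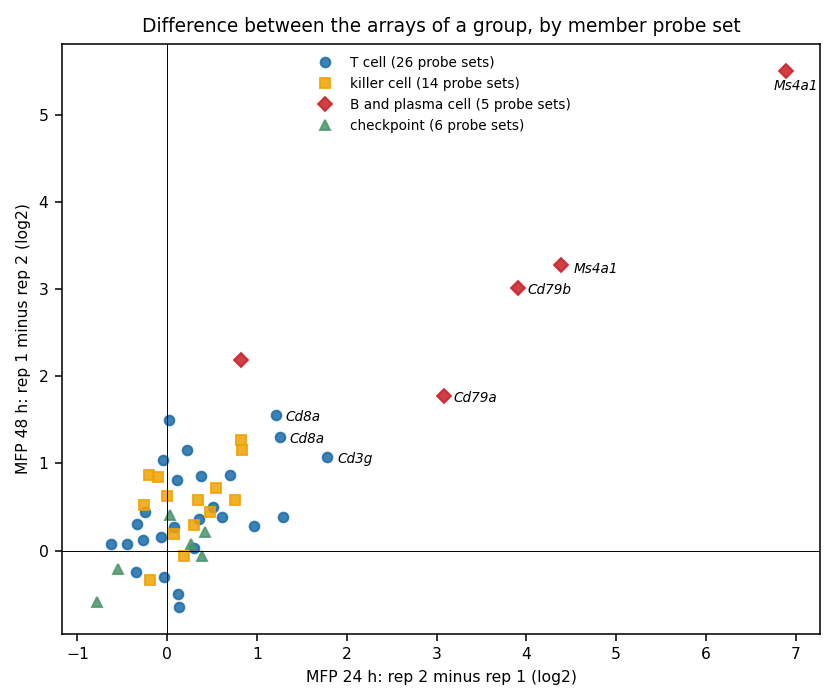
Each point is 1 of the 51 member probe sets, placed by the difference between MFP 24 h replicate 2 and replicate 1 (horizontal, log2) and between MFP 48 h replicate 1 and replicate 2 (vertical, log2), with colour and shape for the role. The B cell probe sets lie far to the upper right, up to 6.89 and 5.51 for Ms4a1, and most T cell and killer cell points lie in the same quadrant within 2 units of 0.

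Other lists were read in the same arrays. A wider list of 22 measured B and plasma cell genes, none of them a member, had medians of 0.20 and 1.69 at 24 h and 0.97 and 0.14 at 48 h, with 15 of 22 genes above 1 in MFP 24 h replicate 2, 11 in MFP 48 h replicate 1, and no more than 3 in each of the others. Pou2af1, a co-activator of B cells, stood at 4.99 and 4.20 in these 2 arrays and Tnfrsf13c, the receptor for the survival factor BAFF, at 4.28 and 2.55, both named after their values were seen. The plasma cell genes Prdm1 (-0.32 and 0.03) and Tnfrsf17 (0.07 and 0.01) did not share these values. Cxcl13, a chemokine that draws B cells, was at 2.93 and 2.37 there and at 0.951 and 0.997 in the other arrays of these groups. Prdm1, Tnfrsf17 and Cxcl13 were also named outside the rule for naming genes given below.

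Red cell precursor genes, a list written after the values were seen, had medians of 1.98 in MFP 24 h replicate 2 and 1.32 in MFP 48 h replicate 1, and between -0.28 and 0.25 in the other 10 arrays. In these 2 arrays 10 and 6 of the 11 genes were above 1. Lymph node stroma genes had medians of 0.68 and 0.27 there, and between -0.15 and 0.12 elsewhere. The general leukocyte list of 15 genes had 0.41 with 1.34 at 24 h, 1.18 with 1.09 at 48 h and -0.53 and 0.38 in MPA, so that it was high in both 48 h arrays. The macrophage list had 1.71 and 1.87 at 48 h. The pancreas list was at 6.82 in MFP 24 h replicate 2 against 0.83 in replicate 1, and the muscle list at 4.24 in MFP 48 h replicate 1 against 0.07 in replicate 2. The part of these lists in the values of the members was not tested.

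Without these 2 arrays, an alternative chosen after seeing the data, no member passed at 6 h, 12 h, 24 h or 48 h. Nothing is read from the B cell genes in this fit, since the arrays were left out for the high values of these genes. The fits that leave out the other array of a group instead give the high values alone. Without MFP 24 h replicate 1 the B cell genes Ms4a1 (4.92), Cd79b (3.79) and Cd79a (2.21) passed at 24 h and Gzmb did not. Without MFP 48 h replicate 2, Jchain (2.43), Cd28 (1.35), Cd3d (1.05) and 2 probe sets of Cd8a (1.40 and 0.96) passed at 48 h. In such a fit the lone array is assumed to vary like the other groups. The 24 h and 48 h means of these genes thus rest on which array is kept.

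Cd274, which encodes the PD-1 ligand PD-L1, was above MPA at every MFP time. The MPA arrays stood at -0.26 and 0.22 and the no MPA arrays at -0.13 and 0.17. The pairs under MFP were 0.86 with 0.47 at 6 h, 0.95 with 0.93 at 12 h, 0.56 with 0.95 at 24 h, and 0.49 with 0.56 at 48 h. All 8 MFP arrays were above all 4 arrays of MPA and no MPA, and the replicates of each MFP time lay at most 0.39 apart. Cd274 rose by 0.96 ± 0.23 at 12 h (adjusted p = 0.0499). It stood at 0.68 ± 0.23 at 6 h (adjusted p = 0.201), 0.77 ± 0.23 at 24 h (adjusted p = 0.0764) and 0.54 ± 0.23 at 48 h (adjusted p = 0.172). The call at 12 h is at the edge of the threshold: of the 12 fits that leave out 1 array it passed in 2, those without either 24 h array (adjusted p from 0.0485 to 0.206, fold changes of 0.73 to 1.20 over the 12). In the no MPA group Cd274 differed from MPA by less than its error.

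Pdcd1lg2, the gene of the other PD-1 ligand, was at 0.59 and 0.61 at 24 h and at -0.43 and 0.33 in MPA (0.65 ± 0.37, adjusted p = 0.341). Pdcd1, the gene of PD-1 itself, stood at 0.25 and -0.31 in MPA and at -0.36 and -0.24 in no MPA. Its MFP pairs were -0.27 with -0.56 at 6 h, -0.0042 with -0.02 at 12 h, -0.18 with 0.23 at 24 h, and 0.53 with 0.31 at 48 h. Both 48 h arrays were above the other 10. Pdcd1 rose along the time course with a slope of 0.26 ± 0.07 per log2 unit of hours (adjusted p = 0.0391). Against MPA it stood at 0.45 ± 0.23 at 48 h (adjusted p = 0.265). When 1 MFP array was left out the slope lay between 0.21 and 0.28 and passed only without MFP 24 h replicate 1.

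Ctla4, a receptor that competes with CD28 for its ligands, stood at 1.04 and 0.50 at 24 h, at -0.11 and 0.10 in MPA and at 0.47 and 0.52 in no MPA. Every array of the other 5 groups was above both MPA arrays, and the difference at 24 h was 0.77 ± 0.23 (adjusted p = 0.0755). Lag3, an inhibitory receptor that binds MHC class II, was at 0.90 and 0.47 at 12 h (0.68 ± 0.19, adjusted p = 0.0841) and between -0.29 and 0.28 in all other arrays. Havcr2, the gene of TIM-3, was at 0.36 and 0.94 at 48 h (0.66 ± 0.34, adjusted p = 0.259) and at 0.42 and -0.36 at 24 h. The checkpoint genes thus reached their highest means at different times, and 1 of these 6 genes passed in a contrast with MPA.

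**Figure D5:**
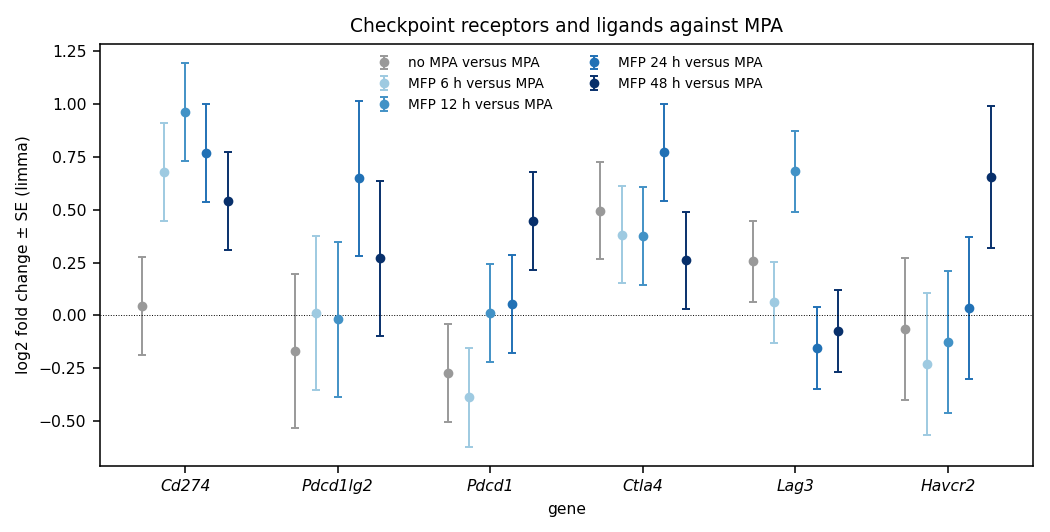
Points show the log2 fold change against MPA of the 6 checkpoint genes, with bars for the standard error in limma, in grey for no MPA and in blues for the 4 MFP times. Cd274 is above 0 at each MFP time with its maximum at 12 h (0.96), Lag3 is highest at 12 h (0.68), Ctla4 at 24 h (0.77), and Pdcd1 and Havcr2 at 48 h (0.45 and 0.66).

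The no MPA group, with 48 h of saline and the doubt about its MPA given above, was set against MPA for the same genes. None of the 51 probe sets passed against MPA in limma, where 0.0% of all probe sets did, and 2 had an unadjusted p under 0.05, Cd8b1 (0.78 ± 0.31, adjusted p = 0.697) and Nkg7 (-0.48 ± 0.22, adjusted p = 0.734). Cd8b1 was at 1.14 and 0.39 in no MPA. The comparison of MFP 48 h with no MPA had no member past the test, where 10.7% of all probe sets passed, and 5 members had an unadjusted p under 0.05. They included Pdcd1 (0.72 ± 0.23, adjusted p = 0.0781) and Nkg7 (0.62 ± 0.22, adjusted p = 0.101), both higher at 48 h of MFP. Between MFP 48 h and MFP 24 h no member passed (1.48% of all probe sets did), and none had an unadjusted p under 0.05. Of all 34945 probe sets 2370, 8632 and 4471 had an unadjusted p under 0.05 in limma in these comparisons, in the order given.

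Wider pathway lists, none of whose genes is a member, were read beside them, counting a gene that had at least 1 probe set past the test. Counted in this way over all 18161 genes, 2.21% rose and 3.34% fell at 12 h, 5.21% rose and 5.5% fell at 24 h, and 7.67% rose and 7.85% fell at 48 h. With quantile normalization 101 of all 34945 probe sets rose at 12 h, 7 at 24 h and 0 at 48 h. Every rise at 48 h named below thus lost its call in that fit. That scaling gives all arrays the same spread, while the MPA arrays, as ratios to their own mean, had SDs of 0.255 and 0.267. The 48 h arrays had 0.69 and 0.65. In the time trend, which uses no MPA array, 3425 probe sets passed with it, against 3525 in the main fit. The loss against MPA therefore cannot show how firm these rises are, and its cause was not tested.

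Of 22 T cell signalling and identity genes 1 rose at 12 h, where 2.21% of all genes did, 2 rose at 24 h (5.21%), and 3 rose (7.67%) and 1 fell (7.85%) at 48 h. Il7r, the receptor of interleukin 7, which naive and memory T cells need and other cells also make, had -0.12 and 0.11 in MPA, 2.14 and 2.16 at 24 h and 2.75 and 2.43 at 48 h. Its replicates agreed, unlike those of the CD3 genes, and it rose by 2.16 ± 0.28 at 24 h (adjusted p = 0.0023) and 2.60 ± 0.28 at 48 h (adjusted p = 0.0022). Ptprc, the CD45 gene of all leukocytes, rose by 1.90 ± 0.43 at 24 h and 1.96 ± 0.43 at 48 h, and Cd44, an adhesion receptor of many cell types, by 1.62 ± 0.29 at 48 h. Gata3, a factor of helper T cells and of luminal epithelium, fell by 2.18 ± 0.46 at 48 h. The risen genes of this list are not specific to T cells.

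Of 22 further killer cell genes 5 rose at 24 h, where 5.21% of all genes did, and 3 at 48 h (7.67%), and none fell. Ccl5, a chemokine of activated T and NK cells and of macrophages, was at -0.84 and 0.53 in MPA, 1.62 and 1.89 at 24 h and 0.72 and 0.28 at 48 h, and it rose by 1.91 ± 0.41 at 24 h (adjusted p = 0.0212). Srgn, the granule proteoglycan serglycin that many leukocytes make, rose by 1.88 ± 0.37 at 24 h and 2.78 ± 0.37 at 48 h. Serpinb9, an inhibitor of granzyme B, rose by 1.80 ± 0.30 at 24 h and, in another probe set, by 1.63 ± 0.42 at 48 h. Il18rap, a receptor chain for interleukin 18, rose by 1.65 ± 0.26 at 48 h. Ccl5 thus shared with Gzmb a higher mean at 24 h than at 48 h.

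Of 22 further B and plasma cell genes 1 rose at 24 h, where 5.21% of all genes did, and 4 at 48 h (7.67%). The largest at 48 h were Ly86, which macrophages also express (1.73 ± 0.37), Cd72 (0.96 ± 0.25) and Sdc1, which epithelium also expresses (0.92 ± 0.24). The rise at 24 h was that of Pou2f2, a factor that binds the octamer (0.71 ± 0.18, adjusted p = 0.0461). Pou2af1, Tnfrsf13c and Prdm1 did not pass at these times.

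Of 25 further co-stimulatory and inhibitory receptors and ligands 1 rose (2.21% of all genes) and 1 fell (3.34%) at 12 h, 1 rose at 24 h (5.21%) and 6 rose at 48 h (7.67%). Ido1, which encodes a tryptophan-degrading enzyme that restrains T cells, was at -1.53 and 0.73 in MPA, 2.65 and 2.36 at 12 h and 2.12 and 0.78 at 24 h, and it rose by 2.90 ± 0.65 at 12 h (adjusted p = 0.038), the time at which Cd274 passed. Vsir, an inhibitory ligand gene, fell by 1.72 ± 0.35 at 12 h. At 24 h Nectin2, which encodes a ligand of TIGIT, rose by 0.78 ± 0.17. At 48 h Entpd1 (1.62 ± 0.33) and Nt5e (1.12 ± 0.29), whose enzymes make adenosine outside the cell, and Pvr, a ligand of TIGIT (1.503 ± 0.28), rose.

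Of 22 genes of the interferon gamma and cytokine pathway 2 rose at 12 h, where 2.21% of all genes did. At 24 h 6 rose (5.21%) and at 48 h 4 (7.67%), and none fell in these contrasts with MPA. In the MFP time trend 4 rose and 1, Irf1, fell (slope -0.30 ± 0.07, adjusted p = 0.0235 in limma). Of all 18161 genes 1513 rose and 1070 fell in that trend. Gbp2, an interferon-induced guanylate-binding protein gene, was at -0.62 and 0.43 in MPA, 1.26 with 0.85 at 6 h, 1.62 with 1.55 at 12 h and 1.77 with 1.56 at 24 h. It rose by 1.68 ± 0.33 at 12 h (adjusted p = 0.0231) and 1.76 ± 0.33 at 24 h (adjusted p = 0.0128). Cxcl10, a chemokine induced by interferons, rose by 1.42 ± 0.34 at 24 h, Stat4 by 1.75 ± 0.40 at 24 h, and Cxcl9, a related chemokine gene, by 1.58 ± 0.44 at 48 h. Jak2, a kinase of the interferon gamma receptor, rose by 0.94 ± 0.18 at 12 h (adjusted p = 0.0221), but it stood as high in no MPA (1.10 ± 0.18, adjusted p = 0.202). Ifngr1, a chain of that receptor, rose by 1.08 ± 0.22 and Tgfb1, a cytokine that restrains T cells, by 1.38 ± 0.38 at 48 h. Ifng itself did not pass at any of these times, as given with the killer cell genes.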

How the data were processed

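RNA of 12 tumour samples, taken from paraffin blocks with the RNeasy FFPE kit per the labels' protocols, was hybridised to 12 Affymetrix Mouse Genome 430 2.0 arrays, with 200 ng of total RNA per labelling. The submitters' processing notes name GCRMA, a background correction and summary method, with no version. The deposited values are log2 ratios: in 45099 of 45101 probe sets both MPA arrays, taken back to the linear scale, have a mean of 1 within 0.0001. This step keeps differences between arrays and loses the level above background, so no filter on low values was possible. The scanner files were not used here and the precision is limited by how few arrays there are.

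Of the probe sets 34945 with 1 gene symbol in the platform annotation were tested. The other probe sets were 932 with several symbols, 9160 with none and 64 controls. Probe sets were tested singly, since choosing 1 per gene by its spread favours larger changes. Tests used limma 3.58.1 in R 4.3.3, with 1 mean for each of 6 groups over all 12 arrays (lmFit and eBayes, 6 residual and 4.31 prior degrees of freedom), contrasts between groups, and Benjamini-Hochberg adjustment over all 34945 probe sets at 0.05. The time trend is a slope over the 8 MFP arrays against log2 hours. The same script was tested on simulated data. Groups came from the source names. No 2 arrays of a group were identical.

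Named genes followed a rule: every member by each probe set, with values in every array for those that passed in any comparison and for Cd3e, Nkg7, Cd79a and Pdcd1. From each wider list up to 3 genes per direction that passed were named, or the gene with the smallest p. Genes named outside the rule are said to be so. The members and lists were chosen with earlier results of these data known, and the list of red cell precursor genes was written after the array values had been seen. Alternatives were 1 probe set per gene or the mean of a gene's probe sets, all probe sets, other scalings, array weights, fewer arrays, each array left out, and another time scale. Promoters came from RefSeq (GRCm38.p6).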

Additional observations from a re-analysis of the deposited data

Results flagged for a closer look

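Lag3, the gene of an inhibitory receptor of T cells, lay on opposite sides of MPA at 2 MFP times. Both 12 h arrays (0.90 and 0.47) were above both MPA arrays (0.03 and -0.03), and both 48 h arrays (-0.04 and -0.11) were below them. The log2 fold changes against MPA were 0.68 ± 0.19 at 12 h and -0.07 ± 0.19 at 48 h, a difference of 0.76, and neither passed the test in limma (adjusted p = 0.0841 and 0.864). The difference between these times was not tested. The 48 h arrays lay within 0.11 of 0, so the lower side of the pattern is small.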

How the results depend on the processing

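The count of members past the test stayed at 0 under every alternative for MFP 6 h, no MPA and MFP 48 h against MFP 24 h. At 12 h the count of 1 became 0 with 1 probe set per gene by the largest SD, with all probe sets that are not controls, with arrays centred on their medians, with quantile normalization, with only the 4 arrays of both groups, and without both arrays with high B cell genes. At 24 h the count of 1 became 0 with quantile normalization, array weights, only the 4 arrays, and without both arrays with high B cell genes. In the trend the count of 2 became 0 with the slope on hours and 1 without both arrays with high B cell genes (Cd79a, whose high values had led to the choice of these arrays, so that nothing is read from it). When each array was left out in turn the counts ran from 0 to 1 at 12 h, 0 to 3 at 24 h, 0 to 5 at 48 h, 0 to 3 for MFP 48 h against no MPA and 0 to 4 in the trend. For single genes 854 of 1216 values kept their direction and side of the threshold, 362 kept the direction and lost the threshold, and none reversed. Many of these alternatives keep both group means, and the genes were chosen because they had passed. The lack of reversals therefore says little about how firm the directions are. Over all probe sets quantile normalization left 2 calls at 48 h in place of 3686, 52 in place of 2435 at 24 h, 226 in place of 1280 at 12 h and 118 in place of 388 at 6 h, and only the 4 arrays gave 163 at 48 h and 171 at 24 h. In the trend, which uses no MPA array, quantile normalization left 3425 calls in place of 3525. It gives all arrays the same spread, and the MPA arrays, as ratios to their own mean, had the smallest (SD 0.255 and 0.267). Lost calls against MPA in that fit therefore say little about how firm the calls are. The causes were not tested. No paired analysis was possible because the labels give no replicate numbers. Signal over background is unknown, so a gene near background cannot be told from one that did not change, and 2 arrays per group leave the calls of Gzmb, Cd274, Foxp3 and Pdcd1 near the threshold.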

Other observations

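The replicates at 6 h of MFP were also ordered alike over the T cell genes. Of the 26 T cell probe sets 2 were higher in replicate 2 than in replicate 1, or 7.69%, against 51.4% of all probe sets, and the median difference between replicate 2 and replicate 1 was -0.56. The B and plasma cell probe sets had the same order in all 5, with a median difference of -0.85. Ms4a1 stood at 2.19 and 1.23 in replicate 1 and at -0.19 and 0.08 in replicate 2. Cr2, a complement receptor of B cells, stood at 1.48 and 0.24, Bank1, a B cell scaffold gene, at 0.997 and -0.074, and Pou2af1 at 1.01 and 0.04, all 3 named after their values were seen. The red cell precursor median was 0.07 in replicate 1 and 0.25 in replicate 2 and thus did not share this order. At 12 h the same 26 T cell probe sets were split, with 11 higher in replicate 2.

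The MPA arrays, to which all values refer, differed in some genes of killer cells and B cells. Gzmb stood at -1.14 and 0.63, Klrk1 at -0.69 and 0.47, Gzma at -0.71 and 0.48, Jchain at -0.88 and 0.54 and Cd79b at -0.72 and 0.48, each lower in replicate 1. Of the 14 killer cell probe sets 11 were higher in replicate 2, and 3 lay more than 1 unit apart. Of the 5 B and plasma cell probe sets 3 were higher in replicate 2. Cd79a (0.02 and -0.02) and 1 Ms4a1 probe set (0.08 and -0.09) were not. The general leukocyte list had medians of -0.53 and 0.38 in the same arrays and the macrophage list -0.71 and 0.46.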
